A study of Mus musculus with 6 samples.

Results

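The genes of the lipopolysaccharide (LPS) receptor complex and its adaptors were examined in B cells that had been activated with LPS. They were 10 genes, taken from the 55421 genes of the deposited table by their symbols: *Tlr4*, *Ly96*, *Cd14*, *Cd180*, *Ly86*, *Myd88*, *Tirap*, *Ticam1*, *Ticam2* and *Irak1*. Of these, 9 passed the filter of a mean of at least 10 normalized counts over all libraries, and *Cd14* did not. RNA-seq compared 3 WT with 3 hnRNPL-deficient libraries, each from splenic B cells cultured for 24 h with 5 μg/ml LPS and 5 ng/ml IL-4. The WT mice carried *CD21-cre* and the hnRNPL-deficient mice carried *CD21-cre* with the floxed *Hnrnpl* F/F alleles. Per the study's methods, both groups also carried the Rosa mT/mG reporter, were on a C57BL6/J background, and GFP+ cells were sorted before RNA extraction. The methods give the mice of the study as males and females older than 6 weeks, without the sexes in these groups. GFP in these cells reports that Cre was active in mature B cells, so the control cells had also undergone Cre recombination, but without floxed *Hnrnpl* alleles.

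LPS of Gram-negative bacteria is delivered by CD14 to the complex of TLR4 and MD-2, the product of *Ly96*. TLR4 then recruits TIRAP and MyD88 at the plasma membrane, which engage IRAK kinases and lead to NF-κB, and recruits TRAM (*Ticam2*) and TRIF (*Ticam1*) from endosomes, which lead to interferon regulatory factors. CD180 (RP105) is a TLR4 homologue of B cells that lacks the intracellular signaling domain of the Toll-like receptors and pairs with MD-1, the product of *Ly86*. B cells respond to LPS in culture with proliferation and class switching, although they carry little or no CD14.

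Promoter sequences are shown for 3 genes on which the results turn, namely *Cd180*, the most abundant receptor gene and one that fell, *Tirap*, the one member that was higher, and *Myd88*, the central adaptor. Stretches of 6 of the 10 genes were taken from the RefSeq promoter table (GRCm38.p6), and the other genes were not searched. Each sequence is the 250 bases before the RefSeq start site, 5′ to 3′ on the strand of the gene. They lie at chr13:102693297-102693546 (plus strand) for *Cd180*, chr9:35199966-35200215 (minus strand) for *Tirap* and chr9:119340019-119340268 (minus strand) for *Myd88*. Capitals mark matches to any of 7 motifs searched on both strands.
Cd180: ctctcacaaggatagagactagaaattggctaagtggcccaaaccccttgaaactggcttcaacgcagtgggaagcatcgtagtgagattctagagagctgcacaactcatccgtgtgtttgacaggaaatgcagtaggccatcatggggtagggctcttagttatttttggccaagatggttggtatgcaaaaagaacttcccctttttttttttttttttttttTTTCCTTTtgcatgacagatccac
Tirap: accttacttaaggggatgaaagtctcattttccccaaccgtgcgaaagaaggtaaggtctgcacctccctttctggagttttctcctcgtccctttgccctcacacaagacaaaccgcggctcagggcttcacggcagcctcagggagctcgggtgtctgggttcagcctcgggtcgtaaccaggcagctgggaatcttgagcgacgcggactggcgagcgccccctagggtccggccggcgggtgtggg
Myd88: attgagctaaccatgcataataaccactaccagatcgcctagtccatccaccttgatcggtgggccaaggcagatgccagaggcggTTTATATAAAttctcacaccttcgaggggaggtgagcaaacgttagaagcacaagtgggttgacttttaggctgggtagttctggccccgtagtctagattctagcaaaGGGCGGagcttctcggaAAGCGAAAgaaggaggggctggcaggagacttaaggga
The *Cd180* stretch held 1 match, to the IRF core AANNGAAA, read on the other strand and starting 24 bases before the start site. The *Tirap* stretch held no match. In the *Myd88* stretch an IRF core lay 38 bases and an SP1 box (GGGCGG) 55 bases before the start, and the TATA box TATAAA was matched on each strand, at 160 and 164 bases. The IRF core occurred in 21.3% of the 32851 mouse promoter stretches of the same length, the SP1 box in 32.7% and the TATA box in 12.4%. The other motifs searched were the PU box GAGGAA (23.3% of promoters), the E-box CACGTG (6.02%), the octamer ATTTGCAT (1.6%) and the AP-1 site TGANTCA (6.75%). A match is a description of letters, and no binding was measured. In GENCODE the spans of *Tirap* and *Myd88* begin further upstream, so these stretches lie within the annotated genes.

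The deposited values were counts divided by a size factor per library (normalized counts), and libraries held from 40395186 to 75180749 reads on genes. *Hnrnpl*, the targeted gene, had 24371, 25579.7 and 24174 normalized counts in WT and 2178, 1519 and 1297 in hnRNPL-deficient libraries 1 to 3, a log2 fold change of -3.93 (adjusted p = 2.23e-05, limma). Of 8 B-cell markers all were detected, and none was called (limma, and 0 by edgeR and DESeq2), against 11.4% of all genes by limma. At an adjusted p under 0.1, 1 was higher and 2 lower, each by less than 1.5-fold (limma). Whatever the fold, 10.0% of all genes were higher and 7.97% lower at that threshold. The macrophage markers *Lyz2* and *Marco* were at or near 0 in every library, as were the neutrophil genes *S100a8* and *S100a9*. The 10 macrophage or monocyte markers summed to between 661 and 799.9 normalized counts in WT and between 1785 and 1923 in hnRNPL-deficient libraries. The largest part was *Cd68* in WT (369 ± 36.0, SD) and *Adgre1* in hnRNPL-deficient libraries. The part of these markers in the values below was not tested. *Xist* RNA was high in WT 3 and in hnRNPL-deficient 2 and at most 7.21 normalized counts in the other libraries, and the labels give no sex per library.

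*Tlr4*, the signaling receptor of LPS (chromosome 4, 66827584 to 66930284 in GRCm38, plus strand), fell in hnRNPL-deficient cells. WT libraries 1, 2 and 3 had 1306, 865 and 721 normalized counts, against 695, 489 and 584 in hnRNPL-deficient libraries 1, 2 and 3. The groups did not overlap, although the lowest WT library and the highest hnRNPL-deficient library were close, and WT 1 stood above all others. The WT mean was 964 ± 305 and the hnRNPL-deficient mean 589 ± 103 (SD, n = 3 each), a log2 fold change of -0.68 with a standard error of 0.229 and a 95% interval of -1.20 to -0.16 (adjusted p = 0.0969, limma). A gene was called changed when its adjusted p was under 0.1 and it differed by 1.5-fold or more, so *Tlr4* passed narrowly. The call was lost without WT 1 (log2 fold change -0.44, adjusted p = 0.195, limma), without WT 2 (-0.73, 0.157), without hnRNPL-deficient 2 (-0.55, 0.229) and without hnRNPL-deficient 3 (-0.68, 0.179). It was also lost by edgeR (-0.55, adjusted p = 0.223) and DESeq2 (-0.57, adjusted p = 0.163) on the reads of 5 libraries, which did not include hnRNPL-deficient 2. Further losses came with scaling to equal totals (-0.62, adjusted p = 0.101, limma) and without the mean-variance trend (adjusted p = 0.169, limma). Another came in the 4 libraries low in *Xist*, a choice made after seeing the data (-0.74, adjusted p = 0.182, limma). The call was kept without WT 3 (-0.86, adjusted p = 0.0863, limma) and without hnRNPL-deficient 1 (-0.80, 0.0998). It was also kept with the replicate number as a block (-0.68, adjusted p = 0.0127, limma) and with *Xist* as a covariate (-0.65, 0.0644). In RNA from bulk cells, fewer cells of a kind and less RNA per cell cannot be told apart.

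*Ly96* (chromosome 1, 16688051 to 16709611, plus strand) encodes MD-2, the subunit that binds lipid A and is required for TLR4 to respond. Its normalized counts were 708, 491 and 523 in WT and 422, 381 and 507 in hnRNPL-deficient libraries. The highest hnRNPL-deficient library lay between the WT libraries, so the groups overlapped. The means were 574 ± 117 and 437 ± 64.5 (SD, n = 3 each), and the difference did not pass the test (log2 fold change -0.39, 95% interval -0.81 to 0.04, adjusted p = 0.221, limma). *Cd14*, the LPS transfer protein of myeloid cells, was at 0 in 5 libraries and at 1.01 normalized counts, the worth of 1 read, in hnRNPL-deficient 2. A count of 0 allows up to 3 reads, which is 2.29 to 4.11 normalized counts in these libraries, so no *Cd14* difference was detectable at this depth.

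*Cd180* was the most abundant receptor gene of the set and fell in every hnRNPL-deficient library. It had 27100.3, 21339 and 22222 normalized counts in WT and 15758, 14046 and 17129 in hnRNPL-deficient libraries. No hnRNPL-deficient library reached the lowest WT library. The means were 23554 ± 3103 and 15644 ± 1545 (SD, n = 3 each), a log2 fold change of -0.59 with a standard error of 0.124 and a 95% interval of -0.87 to -0.30 (adjusted p = 0.0208, limma). The fold change of 1.502 lay just above the minimum of 1.5. It fell under that minimum without WT 1 (log2 fold change -0.48, adjusted p = 0.0399, limma) and without hnRNPL-deficient 2 (-0.51, 0.0671). The same held by edgeR (-0.48, adjusted p = 0.0801) and DESeq2 (-0.50, adjusted p = 0.0194) on the reads of 5 libraries, which also left out hnRNPL-deficient 2. With scaling to equal totals, quantile normalization and *Xist* as a covariate the log2 fold change was -0.53, -0.42 and -0.58, also under the minimum. In the 4 libraries low in *Xist* the adjusted p was 0.166 (log2 fold change -0.55, limma). *Cd180* lies on chromosome 13 (102693558 to 102739629, GRCm38, plus strand), and its exons overlap those of *Mast4* on the opposite strand. The authors' counting was strand-specific.

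*Ly86* (chromosome 13, 37345208 to 37419036, plus strand) encodes MD-1, which pairs with CD180 and is needed for its surface display. It had 9928, 8153 and 8115 normalized counts in WT and 7619.8, 6908 and 7071 in hnRNPL-deficient libraries. All hnRNPL-deficient libraries were below the lowest WT library, but the difference was smaller than for *Cd180*. The means were 8732 ± 1036 and 7199.7 ± 373 (SD, n = 3 each), and the log2 fold change of -0.27 (95% interval -0.52 to -0.03) did not pass the test (adjusted p = 0.147, limma).

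**Figure D1:**
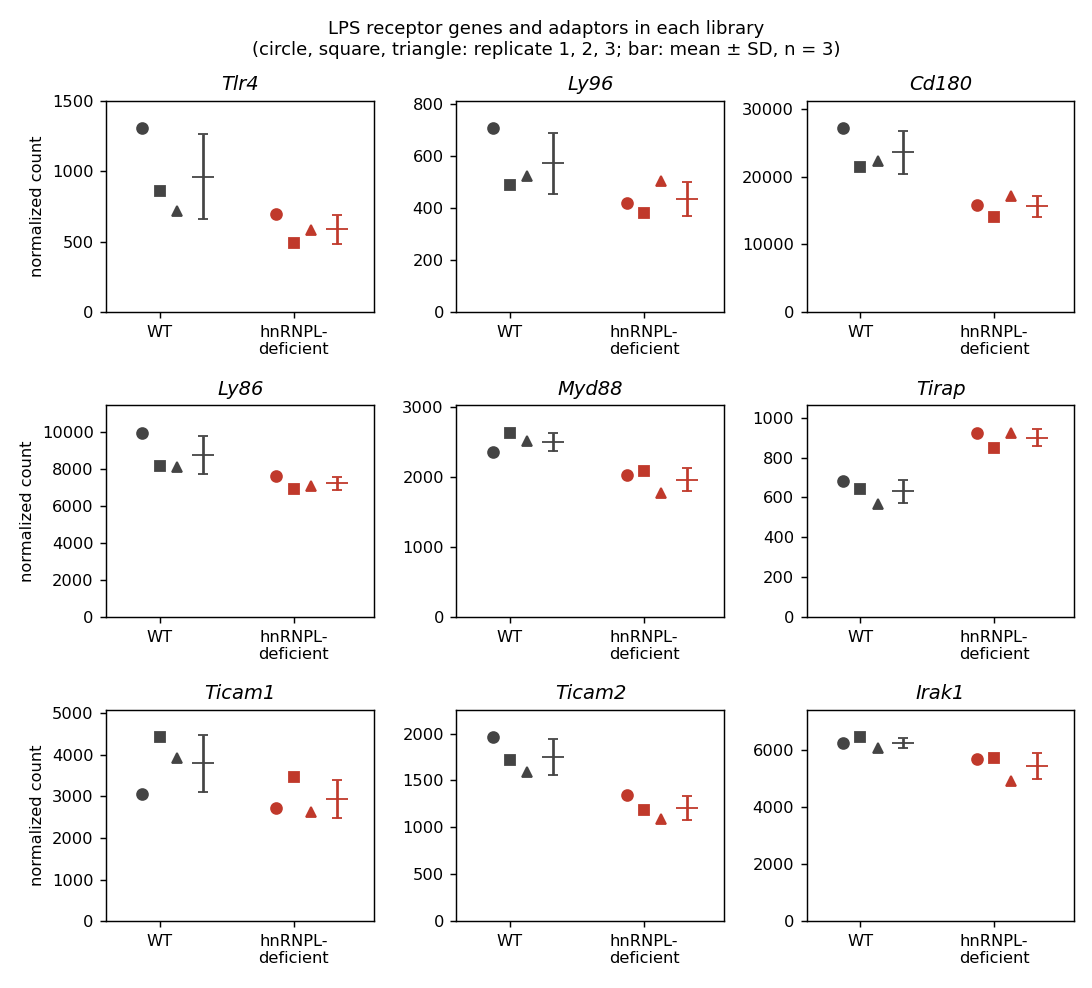
Normalized counts (linear axes from 0) of the 9 tested genes, 1 panel each, in the 3 WT (grey) and 3 hnRNPL-deficient (red) libraries, with symbols for replicates 1 to 3 and bars for the mean ± SD. In the panels of *Tlr4*, *Cd180*, *Ly86*, *Myd88*, *Ticam2* and *Irak1* all red points lie below the grey ones, in that of *Tirap* all lie above, and those of *Ly96* and *Ticam1* overlap.

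*Myd88* (chromosome 9, 119335934 to 119341411, minus strand), the adaptor shared by most Toll-like receptors and the interleukin-1 receptor, was lower in hnRNPL-deficient cells by less than the fold minimum. It had 2362, 2628 and 2509.9 normalized counts in WT and 2027, 2079.9 and 1771 in hnRNPL-deficient libraries. Every hnRNPL-deficient library was below every WT library. The means were 2499.7 ± 133 and 1959 ± 165 (SD, n = 3 each), and the log2 fold change was -0.35, with a standard error of 0.107 (adjusted p = 0.0686, limma), which passed the p threshold and not the fold change. With 1 library left out, the adjusted p was 0.0780 without WT 1 and between 0.105 and 0.210 without any of the others (limma). Exons of *Myd88* overlap those of *Acaa1a* on the opposite strand.

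*Tirap* (chromosome 9, 35184551 to 35200291, minus strand), which brings MyD88 to TLR4 at the membrane, went the other way. It had 681, 644 and 565 normalized counts in WT and 922, 849 and 924 in hnRNPL-deficient libraries. The lowest hnRNPL-deficient library was above the highest WT library. The means were 630.2 ± 59.3 and 898 ± 42.7 (SD, n = 3 each), a log2 fold change of 0.51 with a standard error of 0.127 (95% interval 0.23 to 0.80, adjusted p = 0.0356, limma). The fold was under 1.5, so *Tirap* was not called in the main test. On the reads of the 5 libraries other than hnRNPL-deficient 2, edgeR called it higher (log2 fold change 0.59, adjusted p = 0.0491). The limma adjusted p was 0.138 without WT 3 and 0.107 without hnRNPL-deficient 1. Its exons overlap *Srpr* and an antisense gene on the opposite strand.

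*Irak1* (chromosome X, 74013914 to 74023918, minus strand), the kinase that is recruited by MyD88 with IRAK4, had 6224, 6433 and 6068 normalized counts in WT and 5689.6, 5721 and 4922 in hnRNPL-deficient libraries. No hnRNPL-deficient library reached the lowest WT library. The means were 6242 ± 183 and 5444 ± 452 (SD, n = 3 each), and the log2 fold change of -0.20 (95% interval -0.42 to 0.02) did not pass (adjusted p = 0.223, limma).

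*Ticam2* (chromosome 18, 46557291 to 46574533, minus strand) encodes TRAM, which bridges TLR4 to TRIF on endosomes. It had 1958, 1714 and 1585 normalized counts in WT and 1348, 1189 and 1086 in hnRNPL-deficient libraries. All hnRNPL-deficient libraries were lower than all WT libraries. The means were 1752 ± 189 and 1208 ± 132 (SD, n = 3 each), and the log2 fold change was -0.54, with a 95% interval of -0.83 to -0.24 and a standard error of 0.129 (adjusted p = 0.0333, limma), under the fold minimum. It passed both thresholds without WT 3 (log2 fold change -0.61, adjusted p = 0.0702, limma) and without hnRNPL-deficient 1 (-0.62, 0.0496). Exons of *Ticam2* overlap those of *Tmed7* on the same strand, which could share reads. *Tmed7* itself had a log2 fold change of -0.15 (adjusted p = 0.546, limma).

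*Ticam1* (chromosome 17, 56269319 to 56276786, minus strand) encodes TRIF, the adaptor that leads to interferon responses. It had 3063, 4410.4 and 3909 normalized counts in WT and 2727, 3454 and 2619 in hnRNPL-deficient libraries. WT 1 was lower than hnRNPL-deficient 2, so the groups overlapped. The means were 3794 ± 681 and 2933 ± 454 (SD, n = 3 each), and the log2 fold change of -0.37 (95% interval -0.73 to 0.00056) did not pass (adjusted p = 0.183, limma).

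Across the 9 tested genes, 2 fell and none rose by both thresholds (limma). Over all 17640 genes tested, 4.08% were called lower and 7.28% higher, or 11.4% in either direction. By the p threshold alone 4 were lower and 1 higher, against 7.97% and 10.0% of all genes. At an unadjusted p under 0.05 there were 5 lower and 1 higher, against 12.9% and 14.4% of all genes. Groups did not overlap with hnRNPL-deficient libraries lower for 6 of the 9 genes, against 16.3% of all genes, and with them higher for 1, against 17.7%. The median log2 fold change was -0.37, beside -0.03 over all genes, with 8 negative and 1 positive. On the reads of the 5 libraries other than hnRNPL-deficient 2, edgeR called *Tirap* alone, and DESeq2 called none of the 9. Of all 17714 genes in these tests, edgeR called 1131 higher and 576 lower, and DESeq2 1176 and 713. WT 1 was the highest WT library for 6 of the 9 genes and the lowest for 2, *Myd88* and *Ticam1*.

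**Figure D2:**
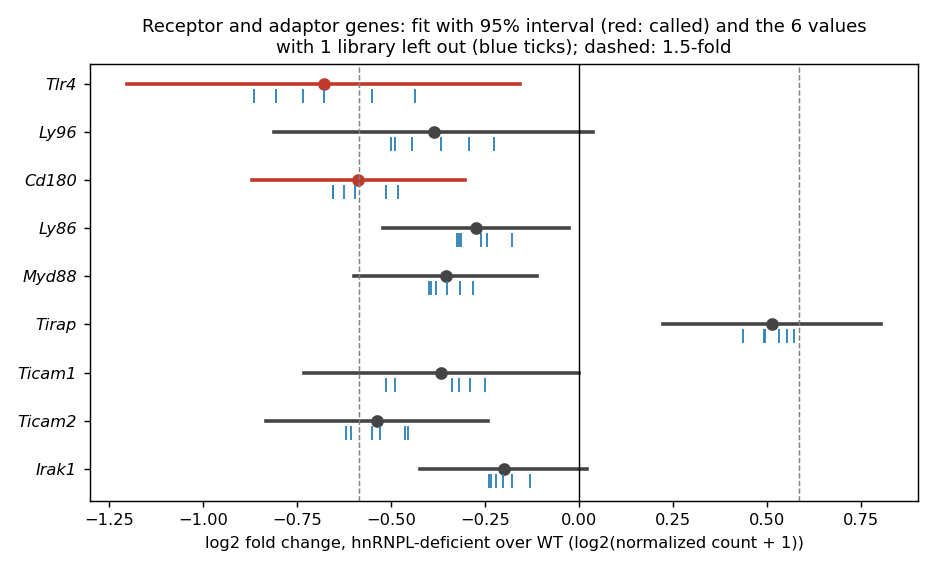
Log2 fold change of hnRNPL-deficient over WT for the 9 tested genes on the scale of log2(normalized count + 1), with the 95% interval as a line (red where called), the 6 values with 1 library left out as blue ticks and the fold of 1.5 dashed. The ticks of *Tlr4*, *Cd180* and *Ticam2* fall on both sides of the lower dashed line. *Tirap* alone lies above 0, and the intervals of *Ly96*, *Ticam1* and *Irak1* include 0.

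Per kilobase of exon, the receptor genes differed widely in level. *Cd180* had 5224 ± 688 normalized counts per kilobase in WT against 3469.6 ± 343 in hnRNPL-deficient cells, and *Ly86* 2404 ± 285 and 1982 ± 103. *Tlr4* had 173 ± 54.8 and 106 ± 18.6, and its partner *Ly96* 562 ± 115 and 428 ± 63.2. The order in WT was *Cd180*, *Ly86*, *Irak1*, *Ticam1*, *Myd88*, *Ly96*, *Ticam2*, *Tlr4*, *Tirap* and *Cd14*. The ranges of *Irak1* and *Ticam1* overlapped in WT, as did those of *Tlr4* and *Tirap*, while the other neighbours did not overlap. In hnRNPL-deficient cells *Tirap* stood above *Tlr4*, with 182 ± 8.66 normalized counts per kilobase. Lengths were the union of annotated exons, so a gene whose long isoforms are little used has a level that is too low.

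**Figure D3:**
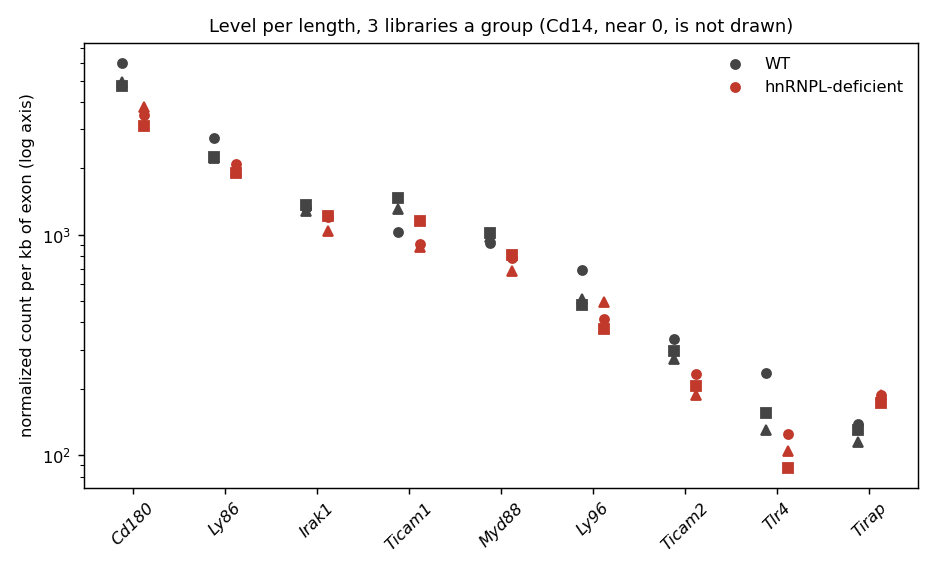
Normalized counts per kilobase of exon (log axis) for 9 genes, with each WT (grey) and hnRNPL-deficient (red) library as a point. *Cd180* and *Ly86* were the highest in both groups, and *Tirap* and *Tlr4* exchanged places between WT and hnRNPL-deficient cells.

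Ratios of counts within a library do not depend on how libraries were scaled, and 4 were compared. The ratio of *Ly86* to *Cd180* was 0.366, 0.382 and 0.365 in WT and 0.484, 0.492 and 0.413 in hnRNPL-deficient libraries. It was higher in all hnRNPL-deficient libraries, by 0.31 on the log2 scale (p = 0.1, the smallest that a two-sided exact permutation test of 3 against 3 allows, adjusted p = 0.4 over the 4 ratios). The ratio of *Ly96* to *Tlr4* was 0.542, 0.568 and 0.725 in WT and 0.607, 0.779 and 0.869 in hnRNPL-deficient libraries, a difference of 0.29 (exact permutation p = 0.2, adjusted 0.4). The *Cd180* to *Tlr4* ratio lay between 20.8 and 30.8 in WT and between 22.7 and 29.3 in hnRNPL-deficient libraries, a difference of 0.09 (exact permutation p = 0.7, adjusted 0.9). The *Ticam1* to *Myd88* ratio differed by -0.01 (exact permutation p = 0.9, adjusted 0.9). For the last 2 ratios the hnRNPL-deficient libraries lay within the WT range.

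Other genes of the pathway were read from 8 lists with 85 genes, of which 71 were tested. By both thresholds 6 rose and 8 fell (limma), against 7.28% higher and 4.08% lower of all 17640 genes tested. The median log2 fold change of the 71 genes was -0.09, beside -0.03 over all genes. Downstream of MyD88, 1 of 16 tested genes fell and none rose. By the p threshold alone 3 of the 16 were lower and 1 higher, against 7.97% and 10.0% of all genes. The gene that fell by both thresholds was *Irak4*, the kinase that starts the IRAK cascade, from 1195 ± 73.8 to 661 ± 53.6 normalized counts (SD, n = 3 each, log2 fold change -0.85, adjusted p = 0.0041, limma). None of 7 tested genes downstream of TRIF, where interferon regulatory factors are activated, was called by limma, edgeR or DESeq2, and 1 was lower at an unadjusted p under 0.05. Among 13 tested inhibitors of Toll-like receptor signaling none was called by any of the tools. By the p threshold alone 1 was higher and 1 lower (limma), each by less than the fold minimum. Of 9 tested folding and trafficking genes, *Rab11fip2*, which takes part in moving TLR4 and TRAM, rose from 876 ± 34.1 to 1736 ± 257 normalized counts (log2 fold change 0.98, adjusted p = 0.0036, limma).

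Of 6 tested Toll-like receptors, all had a negative log2 fold change, as had 9304 of all 17640 genes tested. The median of the 6 was -0.30, and by the p threshold alone 2 were lower, against 7.97% of all genes. *Tlr3*, the receptor of double-stranded RNA, fell from 366 ± 71.0 to 196 ± 48.7 normalized counts (log2 fold change -0.91, adjusted p = 0.0424, limma). The *Tlr3* call was lost without WT 1, WT 3 or hnRNPL-deficient 2 (adjusted p = 0.108, 0.113 and 0.104, limma), and by edgeR (log2 fold change -0.67, adjusted p = 0.125). Of 4 tested genes of other LPS binding or sensing, 2 rose, against 7.28% of all genes. *Casp4*, an intracellular LPS sensor, rose from 1163 ± 88.9 to 1856 ± 142 normalized counts (log2 fold change 0.67, adjusted p = 0.0085, limma). *Cd36*, a scavenger receptor, rose from 5789 ± 1205 to 9051 ± 1433 (0.65, adjusted p = 0.0402, limma), a call that was lost without WT 2, WT 3 or hnRNPL-deficient 3 (adjusted p = 0.125, 0.138 and 0.110, limma) or without the mean-variance trend (0.105). In the 4 libraries low in *Xist* the calls of *Tlr3*, *Casp4* and *Cd36* were lost (adjusted p = 0.246, 0.116 and 0.119, limma).

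Genes that LPS induces were compared in 2 lists. Of 9 tested NF-κB targets, 2 rose and 2 fell, against 7.28% and 4.08% of all genes. *Nfkbiz*, a nuclear IκB protein, rose from 9128 ± 434 to 14217 ± 661 normalized counts (log2 fold change 0.64, adjusted p = 0.0040, limma), and *Il6* had 614, 407 and 374 against 1779, 932 and 1631 in single libraries (1.62, 0.0086). *Il10* had 316 ± 119 and 126 ± 27.7 (-1.28, 0.0262), and *Nfkbid* 2380.2 ± 398 and 1528 ± 266 (-0.64, 0.0404). By the p threshold alone 6 of the 9 were lower and 2 higher, against 7.97% and 10.0% of all genes. The *Nfkbid* call was lost without WT 2, WT 3, hnRNPL-deficient 1 or hnRNPL-deficient 3 (adjusted p = 0.129, 0.125, 0.111 and 0.109, limma), with scaling to equal totals (log2 fold change -0.58) and in the 4 libraries low in *Xist* (adjusted p = 0.101, limma).

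Of 7 tested interferon targets, 4 fell and 1 rose, against 4.08% and 7.28% of all genes. *Ifit1* fell from 7343 ± 806 to 3208 ± 270 normalized counts (log2 fold change -1.19, adjusted p = 0.0008, limma), *Cxcl10* from 997 ± 311 to 358 ± 58.7 (-1.45, 0.0065), *Rsad2* from 1172 ± 169 to 615 ± 79.6 (-0.93, 0.0086) and *Isg15* from 2147 ± 164 to 897 ± 207 (-1.28, 0.0031). *Irf7*, the interferon regulatory factor, rose from 1322 ± 163 to 1974 ± 17.4 normalized counts (0.59, adjusted p = 0.0171, limma), and fell under the fold minimum without WT 1, WT 3, hnRNPL-deficient 1 or hnRNPL-deficient 2 (log2 fold change 0.50, 0.57, 0.58 and 0.58) and with a pseudocount of 5 (0.58). In the 4 libraries low in *Xist* its adjusted p was 0.179 (limma).

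**Figure D4:**
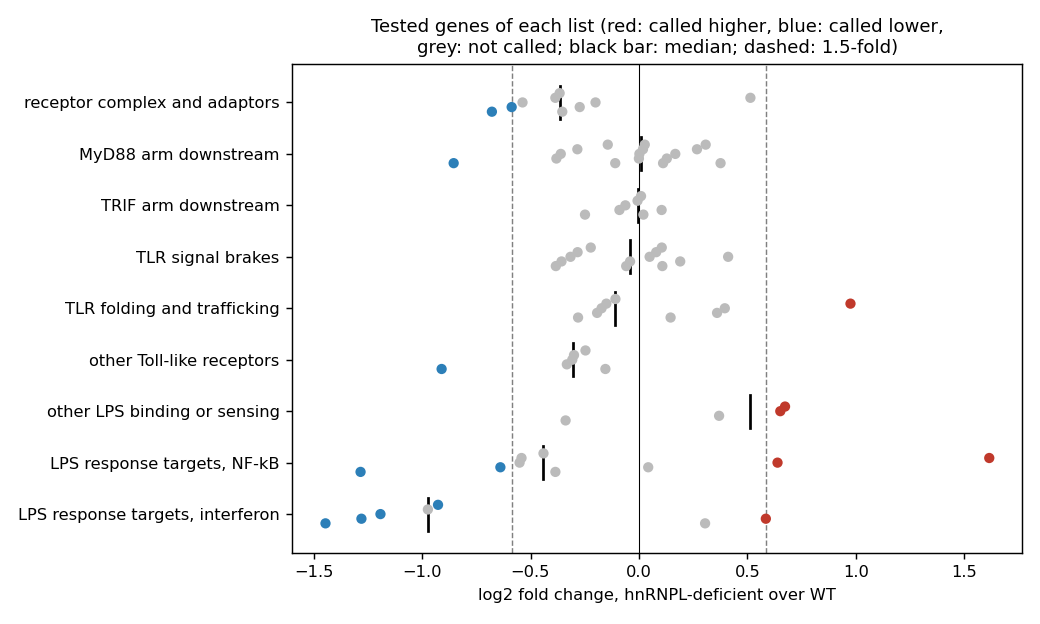
Log2 fold change, hnRNPL-deficient over WT, of each tested gene of the receptor set and the 8 pathway lists, with red and blue for genes called higher and lower, a bar at each median and the fold of 1.5 dashed. The lowest points are *Cxcl10*, *Il10*, *Isg15* and *Ifit1*, between -1.45 and -1.19, and the highest is *Il6* at 1.62.

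The genes whose normalized counts followed *Tlr4* most closely across the 6 libraries, among 12391 genes with a mean of at least 100, were *Rap1b*, *Naa15* and *Jade1*, with Pearson correlations on the log2 scale of 0.999, 0.999 and 0.998. Their log2 fold changes were smaller, at -0.35, -0.32 and -0.37 against -0.68 for *Tlr4*. None of them was called (adjusted p = 0.121, 0.138 and 0.143, limma). Of the set itself, *Ly86* had a correlation with *Tlr4* of 0.98, *Ticam2* 0.91, *Cd180* 0.90, *Ly96* 0.87, *Irak1* 0.62 and *Myd88* 0.57, while *Ticam1* had 0.13 and *Tirap* -0.52. These are descriptions over 6 points that share the library scaling and the group difference.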

How the data were processed

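RNA-seq of 3 WT and 3 hnRNPL-deficient libraries of splenic B cells, grouped by the labels, was analysed. The labels number the libraries as replicates, and p-values measure the spread between them. The authors trimmed reads with fastp 0.23.1, aligned them with STAR 2.7.9a to mm10, counted them per gene by strand with featureCounts, and deposited counts divided by DESeq2 1.38.2 size factors, a signal called normalized counts here. Also deposited were columns of the authors' own comparison (log2 fold changes, a test score and p-values), and none was used.

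Genes averaging 10 or more normalized counts (17640) were tested as log2(normalized count + 1) with limma 3.58.1 in R 4.3.3, with a mean-variance trend and Benjamini-Hochberg adjustment over all of them. Fold changes are on that scale, which understates the change of low genes. Calls required an adjusted p below 0.1 together with a 1.5-fold difference. Ratios were tested by two-sided exact permutation. All values were whole multiples of 1 read within a tolerance of 0.01, so depth was recovered. In hnRNPL-deficient 2, where 1 read is worth close to 1, the automatic test of whole reads did not read the column, so edgeR 4.0.16 and DESeq2 1.42.0 were run on the recovered reads of the other 5 libraries. In these tests edgeR called 1131 genes higher and 576 lower, and DESeq2 1176 and 713, of 17714 genes tested. Intervals are 95%, and the limit that a count of 0 allows covers counting error only.

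The genes and lists were chosen with earlier results of these data known. Named genes are the 10 of the set, every called gene of the 8 lists, the 3 genes most correlated with *Tlr4*, *Hnrnpl* and, from the marker lists, called or defining markers. *Tmed7*, other overlapping genes and *Xist* were named after their values were seen. Positions and exon lengths come from GENCODE M21 on GRCm38, and the authors counted on a later release. Alternatives were other pseudocounts, filters, scalings and thresholds, no trend, the replicate number as a block, *Xist* as a covariate, each library left out, the count tests and, added after seeing the data, the 4 libraries low in *Xist*. The fits were tested on simulated data.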

Additional observations from a re-analysis of the deposited data

How the results depend on the processing

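No gene of the receptor set changed direction under any of the 21 alternatives, and the median log2 fold change of all genes stayed between -0.04 and 0.03. *Tlr4* lay between -0.86 and -0.44 and lost its call in 10 alternatives, and *Cd180* lay between -0.65 and -0.42 and lost its call in 8. The main test called 2 genes of the set lower and 0 higher. The number called lower was 0 with scaling to equal totals, with edgeR, with DESeq2 and in the 4 libraries low in *Xist*, and 1 with quantile normalization, without the mean-variance trend, with *Xist* as a covariate and at an adjusted p under 0.05. At an adjusted p under 0.1 whatever the fold it was 4, with 1 higher, and edgeR also called 1 higher. With single libraries left out it ranged from 0 to 3, with 0 called higher. Over all genes, 1284 were called higher and 719 lower, against 1406 lower whatever the fold, 450 higher and 310 lower in the 4 libraries low in *Xist*, and 850 to 1124 higher and 483 to 695 lower with single libraries left out. Without WT 3 the number higher was 850. Of the pathway genes, 6 were called higher and 8 lower, against 16 lower whatever the fold, 3 higher in the 4 libraries low in *Xist*, and 4 to 6 higher and 6 to 8 lower with single libraries left out. The share of calls that were higher was 64.1%, with 57.5% after quantile normalization and 70.3% after scaling to equal totals. Where fewer libraries were used the tests had fewer samples, and otherwise the cause was not tested.

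The log2 ratio differences with single libraries left out ranged from 0.18 to 0.44 for *Ly96* to *Tlr4*, 0.27 to 0.39 for *Ly86* to *Cd180*, -0.045 to 0.24 for *Cd180* to *Tlr4* and -0.12 to 0.068 for *Ticam1* to *Myd88*. The third changed sign without WT 1 (-0.045), and the fourth without WT 2 (0.068), WT 3 (0.014) or hnRNPL-deficient 1 (0.061).

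With the replicate number as a block, limma called 1755 genes higher and 1018 lower, 2 genes of the set lower and 0 higher, and 6 pathway genes higher and 9 lower, and the ratio differences stayed at 0.29, 0.31, 0.09 and -0.01. Under the block the adjusted p was 0.0398 for *Ly86*, 0.0322 for *Ticam1* and 0.0057 for *Ticam2* (limma), each under the fold minimum. It was 0.108 for *Ly96* and 0.104 for *Irak1*. Deviations from the group means of same-numbered libraries had correlations of 0.43, 0.32 and 0.0663. For each hnRNPL-deficient library this was the highest correlation with any WT library. The next highest was close for hnRNPL-deficient 2 (0.305, with WT 3) and for hnRNPL-deficient 3 (0.0501, with WT 1). The labels do not state a pairing, so the main test left the libraries unpaired, and whether they were paired was not tested. WT 3 correlated better with hnRNPL-deficient 2 (0.31) than with hnRNPL-deficient 3.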

Other observations

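B-cell subset markers moved in both directions in the same libraries. Of 7 tested marginal zone markers, 2 rose and 1 fell (limma), against 7.28% and 4.08% of all genes. By the p threshold alone 2 were higher and 3 lower, against 10.0% and 7.97% of all genes. Groups did not overlap with hnRNPL-deficient libraries lower for 4 of the 7, against 16.3% of all genes, and with them higher for 2, against 17.7%. *Cr2*, the complement receptor whose promoter drives the Cre, rose from 4015 ± 1017 to 7299 ± 2021 normalized counts (SD, n = 3 each, log2 fold change 0.85, adjusted p = 0.0444, limma), and *Cd1d1* from 58.4 ± 18.1 to 178 ± 33.1 (1.62, 0.0094). The *Cr2* call was lost without WT 2, WT 3 or hnRNPL-deficient 3 (adjusted p = 0.125, 0.143 and 0.110, limma). *Dtx1*, a Notch target, fell from 2762 ± 387 to 726 ± 169.5 (-1.94, 0.0008). Of 5 tested follicular markers 2 rose, against 7.28% of all genes. *Cd55* rose from 3008 ± 347 to 23787 ± 8714 and *Ccr7* from 1453 ± 107 to 2818 ± 93.2 normalized counts (2.93 and 0.96, adjusted p = 0.0003 and 0.0012, limma).

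Markers of other cells were low except for a few genes. *Adgre1* rose from 278 ± 39.9 to 1308 ± 80.1 normalized counts (log2 fold change 2.24, adjusted p = 0.0001, limma) and *Ly6c2* from 47.5 ± 10.1 to 93.8 ± 15.6 (0.97, 0.0526). The *Ly6c2* call was lost without WT 1, WT 3, hnRNPL-deficient 1 or hnRNPL-deficient 3 (adjusted p = 0.116, 0.161, 0.136 and 0.120, limma). *Csf1r* was at most 6.85 in any library. The 6 neutrophil markers summed to 8.12 to 12.97 normalized counts in WT and 5.41 to 7.07 in hnRNPL-deficient libraries, and none was tested. The 6 dendritic cell markers summed to 648 to 787 and 637 to 685, with *Xcr1* higher (8.94 ± 0.724 and 24.4 ± 2.89, adjusted p = 0.0370, limma) and *Siglech*, *Clec9a* and *Itgax* at 0. The *Xcr1* call was lost without WT 2, WT 3 or hnRNPL-deficient 2 (adjusted p = 0.102, 0.115 and 0.104, limma). The 8 T or NK cell markers summed to 144 to 198 and 123 to 369, nearly all of it *Thy1*.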
